A study of Mus musculus with 46 samples.

Results

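RNA-seq of B16F10 mouse melanoma cells with and without IFNg included a comparison of guide RNAs under the label PBS, which is described here. Its members were the 2 libraries labelled sgArid1a PBS and the 2 labelled sgScramble PBS, 4 of the 8 libraries in the table of that experiment and 4 of the 46 samples in the series. All 24537 genes of the table were considered, and the 12357 whose log2 values averaged 4 or more over the 8 libraries were tested. B16F10 is an established cell line from a pigmented mouse melanoma. sgScramble is a control guide, and sgArid1a directs a cut in Arid1a. IFNg is interferon gamma, and PBS is the buffer given in its place. The other groups of the table were labelled sgScramble and sgArid1a with murine IFNg, for a time that reads as 24 h. No time is given for the PBS groups, and the labels do not say whether the guided cells were a clone or a pool, or whether the libraries of a group came from separate cultures. The p-values therefore measure only the spread between these libraries, which may be technical. Libraries with the same guides in untreated cultures and in cultures given the solvent DMSO for 72 h, 4 of each, served for a check of the labels. The fit of the untreated cultures also held libraries with a guide against Cgas or Sting added to sgArid1a. That of the DMSO cultures also held sgArid1a libraries given ruxolitinib, an inhibitor of JAK kinases, for 72 h. These further groups entered the filter and the estimate of the spread.

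IFNg is a dimer that binds the receptor chains IFNGR1 and IFNGR2 and activates the kinases JAK1 and JAK2. The signal reaches genes with gamma-activated sites (GAS) and induces IRF1, which acts on interferon-stimulated response elements (ISRE). The transactivators NLRC5 and CIITA then raise MHC class I and class II genes. Type I interferons signal through another receptor, to a complex that holds STAT2 and IRF9, and induce an overlapping but not identical set of genes. ARID1A is the DNA-binding subunit of one form of the SWI/SNF chromatin remodelling complex.

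Arid1a, the targeted gene (GRCm38 chromosome 4, 133679008 to 133753611, minus strand), was not lower in the libraries labelled sgArid1a PBS beyond the spread. Its log2 values were 12.42 and 12.40 under sgScramble PBS and 12.25 and 12.40 under sgArid1a PBS, so that the groups touched. The difference was -0.08 ± 0.05 (standard error, n = 2 libraries a group; adjusted p = 0.51, limma), and in the authors' deposited table it was -0.08 with an adjusted p of 0.72. The lower values of the table stood in the libraries labelled IFNg, at 12 and 12.11 with sgScramble and at 12.15 and 12.13 with sgArid1a. The difference between sgScramble IFNg and sgScramble PBS was -0.35 ± 0.05 (adjusted p = 1.7e-05, limma). In the untreated cultures the same guide label went with -0.58 ± 0.11 (adjusted p = 0.0043, limma) and in the DMSO cultures with -0.26 ± 0.12 (adjusted p = 0.23, limma). In the untreated table the sgScramble libraries read 10.90 and 11.08, and those that carried sgArid1a alone read 10.43 and 10.39. Libraries whose genotype label adds a guide against Cgas to sgArid1a had 11.03 and 10.74, and those with a guide against Sting in addition had 10.71 and 10.83. All 4 stood above both libraries with sgArid1a alone, and 1 of them lay within the sgScramble range. Because Arid1a did not follow the guide labels here, every direction below is that of libraries carrying the stated label.

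The 4 libraries held 27.9 to 31.2 M reads, and the 8 held 27.2 to 31.2 M. Markers of the melanocyte lineage were high in all 4 libraries, with Mlana at 14.9 to 15.0, Pmel at 17.3 to 17.4, Tyr at 13.7 and Dct at 17.4. Of 17 leukocyte markers, 8 were at 0 in all 8 libraries, among them Ptprc, Cd3e and Adgre1, and 2 were high enough to be tested. The log2 of the summed leukocyte level was 7.34 and 7.31 under sgScramble PBS and 7.34 and 7.40 under sgArid1a PBS. For endothelial, fibroblast, epithelial and muscle markers it was 8.33 and 8.36 against 8.23 and 8.28. Neither list had a member that passed the limma test, 1 of the 6 tested markers was lower at an unadjusted p under 0.05, and 1 was lower by the authors' deposited calls. In bulk RNA, fewer cells of a type and less RNA per cell cannot be told apart.

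Under the PBS label, the libraries labelled sgArid1a had a broad interferon response relative to those labelled sgScramble. Of 12357 tested genes, 336 differed (2.72%), 293 of them higher (2.37%) and 43 lower (0.348%), at an adjusted p under 0.05 (limma, Benjamini-Hochberg). With each library centred on its median the split was 252 higher and 80 lower. The rises reached 4.57 on the log2 scale, the fall farthest from 0 was -0.51, and the median of all tested genes was -0.01. A difference of at least 1 was reached by 49 of the genes called higher (0.397% of those tested) and by none of those called lower. Of these 49 genes, 44 belonged to the lists of interferon-related genes, which hold 158 of the tested genes. Of all 293 genes called higher, 106 belonged to those lists, and of the 43 called lower, 0. The 2 groups did not overlap in any of the 293 or the 43 genes. These genes were called from the same libraries, so this is a description and no further support. The share without overlap among all tested genes was not counted. By the adjusted p in the authors' deposited table, 405 of its genes were higher (1.65%) and 110 lower (0.448%). By size, 101 of the rises were under 0.25, 89 lay from 0.25 to 0.5, 54 from 0.5 to 1, 28 from 1 to 2, and 21 at 2 or more. The deposited log2 values draw low values together, so that differences of weakly expressed genes can be understated. The number called higher was 194 to 225 when any 1 of the 4 libraries was left out, with 194 without sgScramble PBS replicate 2. The number called lower was 15 and 20 without sgScramble PBS replicate 1 and 2, and 9 and 16 without sgArid1a PBS replicate 1 and 2.

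**Figure D1:**
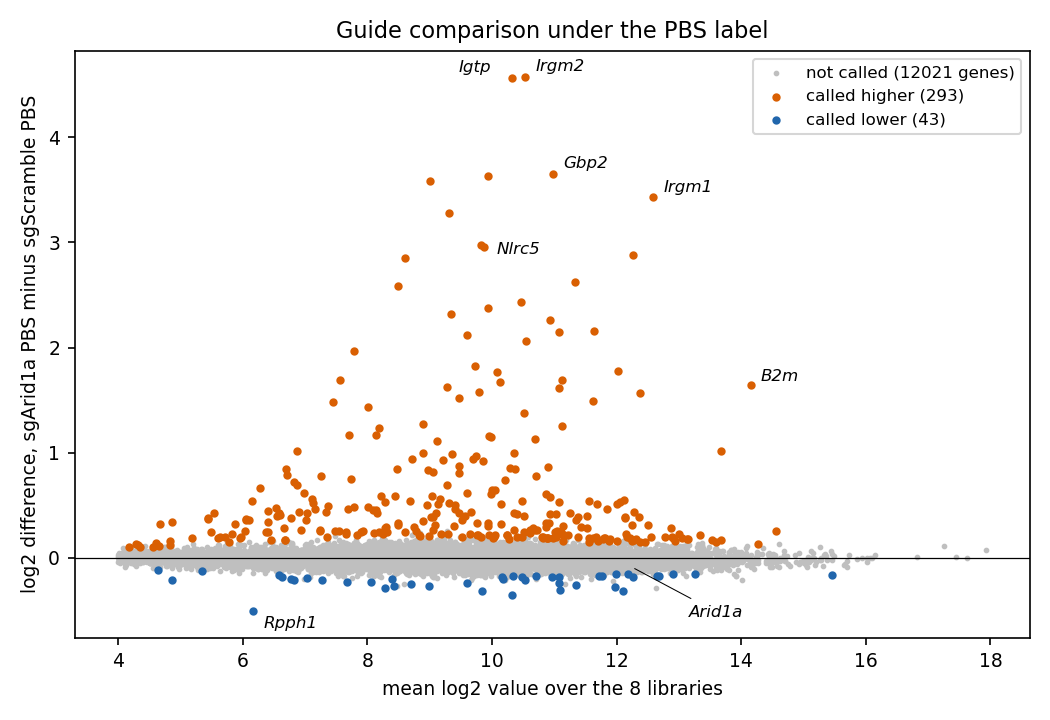
Each point is 1 of the 12357 tested genes, placed by its mean log2 value over the 8 libraries (horizontal axis) and by the log2 difference of the libraries labelled sgArid1a PBS minus those labelled sgScramble PBS (vertical axis). The 293 genes called higher reach 4.57, the 43 called lower end at -0.51, and Arid1a lies at -0.08 among the genes not called.

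The receptor and its kinases were at like levels in both groups, while the factors downstream of them were higher. Ifngr1, the ligand-binding chain, was at 8.74 and 8.78 under sgScramble PBS and at 8.75 and 8.79 under sgArid1a PBS. Its difference was 0.01 ± 0.05 (adjusted p = 0.96, limma). The differences of Ifngr2, Jak1 and Jak2 were -0.04, -0.01 and 0.08, and none passed the test. Irf1, a transcription factor induced by IFNg, was at 9.81 and 9.81 against 12.53 and 12.34. All 4 libraries separated by label, and the rise was 2.63 ± 0.05, a 6.17-fold change on this scale (adjusted p = 5.5e-16, limma). Irf9 and Stat2, parts of the complex that answers type I interferon, rose by 1.53 and 0.94. Socs1, the feedback inhibitor of JAK kinases, rose by 0.34 from values of 6.15 and 6.21 to 6.58 and 6.47. In the list of interferon ligands, receptors and signalling factors, 10 of 25 tested members rose, 0 fell and the median difference was 0.08, against -0.01 over all tested genes. The ligand genes Ifnb1 and Ifng are listed at 0 in all 8 libraries.

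The interferon-inducible GTPases, which act against intracellular pathogens at the membrane of their vacuole, had the highest median difference of the 25 gene lists. All 13 tested members of 22 rose, with a median of 2.98, and the mean of the 13 was 7.42 and 7.37 under sgScramble PBS against 10.30 and 9.99 under sgArid1a PBS. Irgm2, a regulatory member of the p47 family, had log2 values of 8.07 and 7.97 against 12.67 and 12.51. The difference was 4.57 ± 0.05, or 23.7-fold (adjusted p = 3.9e-19, limma). Igtp, its neighbour on chromosome 11 and also a regulatory member, had 7.74 and 7.73 against 12.53 and 12.08 and rose by 4.57 ± 0.09. Both members of the pair were thus low in both sgScramble PBS libraries and high in both sgArid1a PBS libraries, with replicate 1 the higher one. Gbp2, a guanylate-binding protein of the p65 family, had 8.81 and 8.83 against 12.67 and 12.26, a rise of 3.65 ± 0.09. In the authors' deposited table the log2 fold changes were 6.27 for Irgm2, 6.92 for Igtp and 4.49 for Gbp2. Irgm1, the most abundant of those named, had 10.66 and 10.68 against 14.20 and 14.01. Ifi47, Tgtp2 and Gbp7 rose by 3.63, 3.58 and 2.98. These genes lie in clusters of close paralogs, and reads may be split among them, so the value of a single member is uncertain.

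To show what the strongest risers carry before their start sites, stretches of RefSeq promoters (GRCm38.p6) are given for those with a motif match in the 250 bases before the start, on the gene's own strand, 5′ to 3′, with the matches in capitals. The motifs searched were TTCNNNGAA, the GAS pattern, which reads the same on both strands, and GAAANNGAAA, a pattern of the ISRE, on both strands. Overlapping matches were allowed. Over all 27025 genes with a promoter in the table, 8.13% held the first, 3.46% the second and 11.1% either. Irgm2, Igtp, Tgtp2 and Irgm1 belong to the p47 family, and the stretches of Irgm2 and Igtp differ at 1 of 45 positions.
Irgm2, chr11:58214890-58214934, plus strand: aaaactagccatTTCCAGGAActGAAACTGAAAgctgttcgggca
Igtp, chr11:58199499-58199543, plus strand: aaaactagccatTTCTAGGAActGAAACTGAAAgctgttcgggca
Tgtp2, chr11:49064261-49064305, minus strand: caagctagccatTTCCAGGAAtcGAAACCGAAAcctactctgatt
Irgm1, chr11:48871423-48871462, minus strand: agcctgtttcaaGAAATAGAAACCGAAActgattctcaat
Gbp2, chr3:142620592-142620625, plus strand: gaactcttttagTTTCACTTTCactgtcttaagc
Gbp7, chr3:142530218-142530304, plus strand: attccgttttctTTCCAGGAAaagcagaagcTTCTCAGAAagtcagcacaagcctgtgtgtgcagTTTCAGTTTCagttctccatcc
Psmb8, chr17:34198086-34198118, plus strand: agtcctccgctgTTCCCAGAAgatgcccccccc
Irf1, chr11:53769912-53769944, plus strand: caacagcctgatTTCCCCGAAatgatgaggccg
Irgm2, Igtp and Tgtp2 have a GAS match followed within a few bases by an ISRE match, whereas Psmb8 and Irf1 have a GAS match alone and Irgm1 and Gbp2 ISRE matches alone. A match is a description of the letters and no measured binding. The windows of Ifi47, Tap1, Tapbp, Erap1 and H2-K1 held neither pattern, nor did another window of Irf1. This says only that these letters do not occur in them. Those of Bst2 and B2m, not shown, held a match.

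Genes that cut, carry and present peptides on MHC class I rose together. Of 23 tested members of 29, 19 rose, 0 fell and the median difference was 1.63. Psmb8, a catalytic subunit of the immunoproteasome, had log2 values of 7.44 and 7.33 under sgScramble PBS against 10.82 and 10.50 under sgArid1a PBS, a rise of 3.28 ± 0.08. Nlrc5, the transactivator of class I genes, had 8.51 and 8.39 against 11.46 and 11.35 and rose by 2.95 ± 0.07. In both genes the lower library of the group labelled sgArid1a stood far above the higher one labelled sgScramble. Tap1, a subunit of the peptide transporter, Tapbp, which links it to class I molecules, and Erap1, which trims peptides, rose by 2.43, 2.16 and 2.07. H2-K1, a classical heavy chain, was at 9.76 and 9.76 against 12.06 and 11.76, a rise of 2.15 ± 0.07, or 4.43-fold (adjusted p = 6.4e-13, limma). B2m, the light chain, was already abundant at 13.20 and 13.25 and reached 14.94 and 14.79, a rise of 1.64 ± 0.05. In the other cultures the guide label went with differences of -0.22 ± 0.13 (untreated, adjusted p = 0.32, limma) and -0.17 ± 0.12 (DMSO, adjusted p = 0.42, limma) for H2-K1. For B2m they were -0.19 ± 0.18 and 0.07 ± 0.09, and neither passed the test. Other class I genes did rise there. In untreated cultures 12 of 23 tested members were higher and 1 lower (5.84% and 5.98% of all tested genes), with a median of 0.44, and in DMSO cultures 6 were higher and 0 lower (3.5% and 4.38%), with a median of 0.21. Psmb8 and Tap1 rose by 0.72 each in untreated cultures, and by 0.27 and 0.33 in DMSO cultures.

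MHC class II genes rose from a low level. Of 7 tested members of 11, 6 rose, 0 fell and the median difference was 0.45. Ciita, their master regulator, had log2 values of 5.71 and 5.70 under sgScramble PBS against 6.35 and 6.16 under sgArid1a PBS, a rise of 0.54 ± 0.07 (adjusted p = 2.7e-05, limma). Cd74, the invariant chain, rose by 0.72 ± 0.10, H2-Ab1, a class II beta chain, by 0.48 ± 0.06 and H2-DMb1, a part of the peptide editor, by 0.43 ± 0.06. The libraries labelled sgArid1a IFNg were higher still, at 7.02 and 6.78 for Ciita. In the authors' deposited table the log2 fold changes were 7.24 for Ciita, 4.24 for Cd74 and 3.96 for H2-Ab1. The source of the gap between these and the differences of the deposited log2 values was not tested.

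Genes usually listed as targets of type I interferon rose in number but less in size. Of 47 tested members of 56, 43 rose and 0 fell, with a median difference of 0.65. The list that leans to IFNg had 26 of 28 tested members higher, 0 lower and a median of 1.49. Bst2, a tether of budding virus, rose by 1.78, and Parp14, Parp9 and Parp12, ADP-ribosyltransferases, by 2.38, 1.67 and 1.61. Rsad2, the antiviral enzyme viperin, had log2 values of 10.02 and 9.96 against 11.20 and 11.04, a rise of 1.13 ± 0.05. Isg15, a ubiquitin-like modifier, had 7.92 and 7.84 against 8.84 and 8.61, a rise of 0.84 ± 0.07. Ifit1, which binds foreign RNA ends, had 9.0 and 8.95 against 9.59 and 9.40, a rise of 0.52 ± 0.06. In these 3 genes both libraries labelled sgArid1a PBS stood above both labelled sgScramble PBS. In untreated cultures, 33 of 43 tested members of the type I list rose with the sgArid1a label (5.84% of all tested genes rose there), with a median of 0.53. Igtp rose there by 0.97 ± 0.17 and Gbp2 differed by 0.41 ± 0.17 (adjusted p = 0.16, limma).

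Among other interferon-linked genes, the cytosolic sensors of nucleic acid had 10 of 22 tested members higher, 0 lower and a median of 0.15. Ifih1 and Ddx58, the RNA sensors MDA5 and RIG-I, rose by 0.99 and 0.93, Tlr3, which senses double-stranded RNA in endosomes, by 0.58, and Adar, an RNA-editing enzyme, by 0.43. Of 11 tested genes of interferon-linked cell death, 7 rose, among them Xaf1 (1.17), Zbp1 (0.66), Gsdmd (0.56) and Mlkl (0.54), the last 3 being parts of necroptosis and pyroptosis. In the authors' deposited table the log2 fold changes of these 4 were 3.07, 7.60, 1.89 and 0.62, so their order by size depends on the scale. No tested member of the interferon-related lists described above was lower, at an unadjusted p under 0.05 (limma) or by the authors' deposited calls. Of 7 tested complement and acute-phase genes 4 rose, with C1ra at 0.59 and C2 at 0.40. Only 4 of 20 chemokines were high enough to be tested, and Cxcl10, a T cell attractant, was the 1 that rose, with 8.79 and 8.76 against 9.51 and 9.41. Ccl5, another T cell attractant, differed by 0.12 ± 0.05 (adjusted p = 0.33, limma), and Cxcl9 stood at 0.57 to 0.59 in all 8 libraries, below the filter. Of 9 tested checkpoint ligands and related surface genes 3 rose, namely Cd274, which encodes PD-L1, by 0.87 ± 0.06, Lgals9, which encodes galectin 9, by 0.33 and Tnfrsf14 by 0.24. Csf1, a macrophage growth factor, rose by 0.92 as the only one of 14 tested NF-kB genes.

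**Figure D2:**
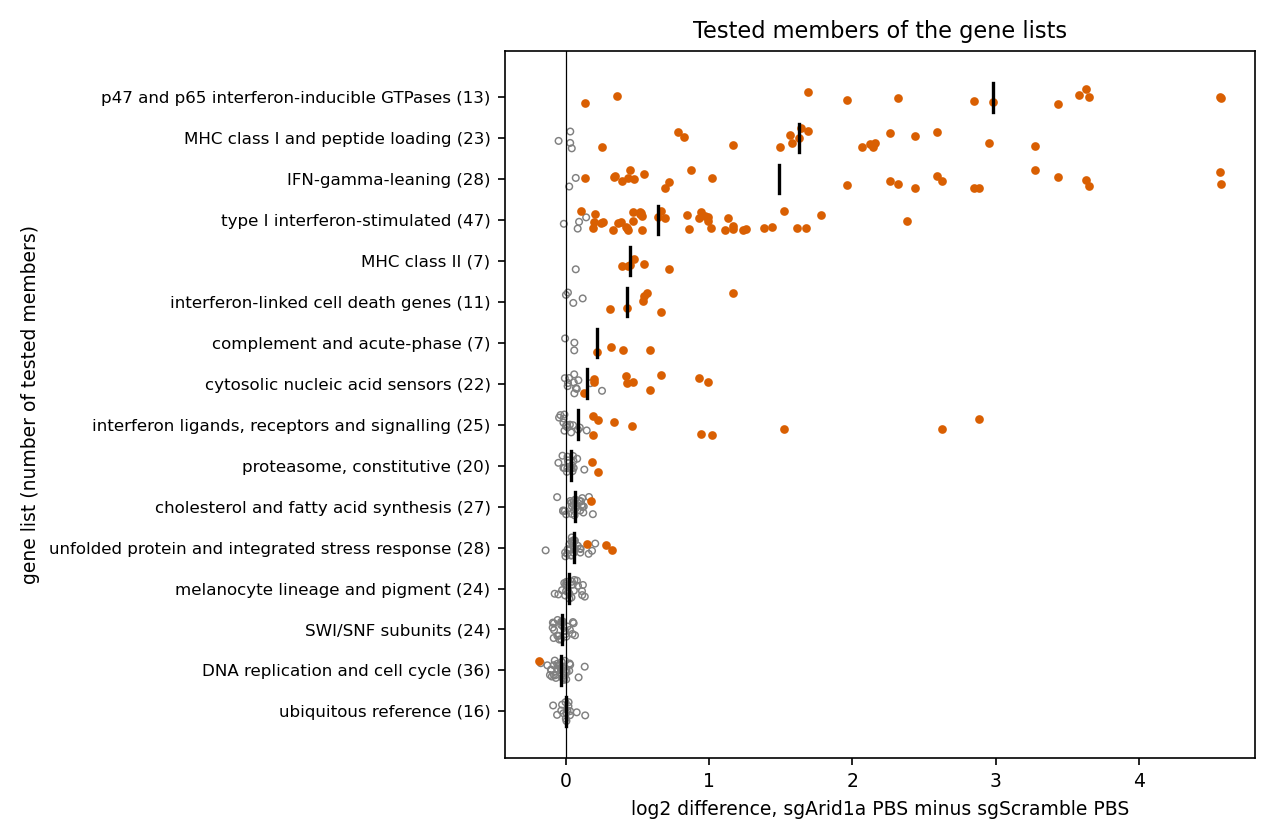
Each point is a tested member of a gene list (vertical axis, with the number tested), placed by its log2 difference, sgArid1a PBS minus sgScramble PBS (horizontal axis). Filled points were called at an adjusted p under 0.05, open points were not, and black bars are medians, which run from 2.98 for the GTPases to 0.45 for MHC class II and about 0 for the SWI/SNF, melanocyte and cell cycle lists.

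The 5 genes that rose by at least 1 without belonging to an interferon-related list were singled out after their values were seen. Ube2l6, the conjugating enzyme for ISG15, had log2 values of 8.78 and 8.63 against 10.65 and 10.42, a rise of 1.82 ± 0.07. Psme2b rose by 1.77, the interferon-inducible GTPase-like gene Gm12185 by 1.49, Trim21, a cytosolic antibody receptor, by 1.27 and Nmi, an interferon-inducible protein, by 1.15. Psme2b has a close paralog in Psme2, and its reads may be shared with it.

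The 43 genes called lower changed little. Rpph1, the RNA component of RNase P, had log2 values of 6.39 and 6.47 under sgScramble PBS against 5.93 and 5.92 under sgArid1a PBS, a fall of 0.51 with a standard error of 0.04 (adjusted p = 4e-07, limma). It was the only one of the 43 whose difference passed 0.5, and in the authors' deposited table it was -2.40. Under the IFNg label Rpph1 was at 6.34 and 6.45 with sgScramble and 5.91 and 5.90 with sgArid1a. Rpph1 RNA carries no poly(A) tail and these libraries were made from polyA RNA. Limch1, an actomyosin regulator, had 12.41 and 12.32 against 12.03 and 12.07, and its difference was -0.32 ± 0.04. Tmem56, Sdc3 (a heparan sulfate proteoglycan) and Lin7c (a scaffold protein) had differences of -0.35, -0.32 and -0.31. Adam19, Itga4, Etv5, Tenm4 and Clvs1 completed the 10 with differences of -0.28, -0.28, -0.27, -0.27 and -0.26. These 10 were picked among called genes whose 2 groups did not overlap, so their lack of overlap is no further result. 4 of these calls did not hold when single libraries were left out. Without sgArid1a PBS replicate 1, Adam19 (-0.23), Itga4 (-0.23), Etv5 (-0.21) and Tenm4 (-0.22) no longer passed. Neither did Adam19 (-0.28) and Tenm4 (-0.21) without sgScramble PBS replicate 1, nor Itga4 (-0.27) and Etv5 (-0.22) without sgScramble PBS replicate 2.

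Lists that describe the state of the cells outside the interferon response had 3 calls or fewer each. Of 24 tested SWI/SNF subunits, 24 melanocyte genes, 32 R-loop and homologous recombination factors, 25 p53 targets, 28 glycolysis and hypoxia genes and 26 matrix genes, 0 were called in either direction by limma. At an unadjusted p under 0.05, 13 of these 159 genes were higher and 11 lower, against 851 and 689 of all tested genes, and by the authors' deposited calls 3 were higher and 2 lower. The medians of these lists lay from -0.03 to 0.02. Of 36 tested replication and cell cycle genes, Ccne2, a cyclin of the G1/S transition, was called, with a difference of -0.19, and Mki67, a proliferation marker, differed by -0.17 ± 0.05 (adjusted p = 0.09, limma). Ccne2 did not pass when any 1 of the 4 libraries was left out, with values of -0.20 to -0.17. Of 28 genes of the unfolded protein and integrated stress responses 3 were higher, Trib3 by 0.32, Atf5 by 0.28 and Asns by 0.15. At an unadjusted p under 0.05 these were 8 higher and 1 lower, and by the authors' deposited calls 6 and 0. Of 27 genes of cholesterol and fatty acid synthesis 1 was higher, Fdft1 by 0.18, with 9 higher and 0 lower at an unadjusted p under 0.05 and 4 and 0 by the authors' deposited calls. Of 20 constitutive proteasome genes 2 were higher, Psma2 by 0.23 and Psmb2 by 0.18. Asns (0.12 to 0.17), Fdft1 (0.16 to 0.20) and Psmb2 (0.14 to 0.23) did not pass with any 1 of the 4 libraries left out. Trib3 did not without sgScramble PBS replicate 1 (0.27) or sgArid1a PBS replicate 1 (0.26), nor Psma2 without the latter (0.19).

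Whether the labels sgArid1a PBS and sgScramble IFNg may be exchanged was examined by 3 measurements, each stated by deposited label. The first was the level of interferon-response genes in all 8 libraries. The 49 genes that rose by at least 1 were chosen by their difference between the PBS groups, so their levels in those 2 groups are a description. The IFNg groups did not enter that difference, but they entered the filter and the estimate of the spread behind the choice. Their mean was 8.86 and 8.83 under sgScramble PBS and 11.04 and 10.82 under sgArid1a PBS. It was 9.0 and 8.94 under sgScramble IFNg and 11.55 and 11.48 under sgArid1a IFNg. The libraries labelled sgScramble IFNg thus stood near those labelled sgScramble PBS, and those labelled sgArid1a IFNg stood above those labelled sgArid1a PBS. Irf1 was at 10.13 and 10.07 under sgScramble IFNg and at 13.04 and 12.97 under sgArid1a IFNg. Irgm2 had 8.27 and 8.22 against 13.26 and 13.28, and B2m 13.27 and 13.18 against 15.29 and 15.29. Between the 2 groups labelled sgScramble, IFNg minus PBS, 4326 genes were called (35%), but of the 13 tested GTPases 4 were higher, 0 lower and the median was 0.04. For MHC class I genes 7 of 23 were higher and 2 lower, with a median of 0.07, and for the type I list 14 of 47 and 2, with a median of 0.08. Of the 49 genes, 20 were higher and 3 lower in that comparison (15.7% and 19.3% of all tested genes), with a median of 0.09. Irf1 rose by 0.29, Gbp2 by 0.33, H2-K1 by 0.38 and Irgm2 by 0.23, less than under sgArid1a PBS. Igtp differed by 0.20 ± 0.09 (adjusted p = 0.11, limma), Psmb8 by 0.07 ± 0.08 (adjusted p = 0.56, limma) and Ciita by 0.01 ± 0.07 (adjusted p = 0.93, limma). Nlrc5 was lower there, at 7.99 and 7.83, a difference of -0.54 ± 0.07.

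**Figure D3:**
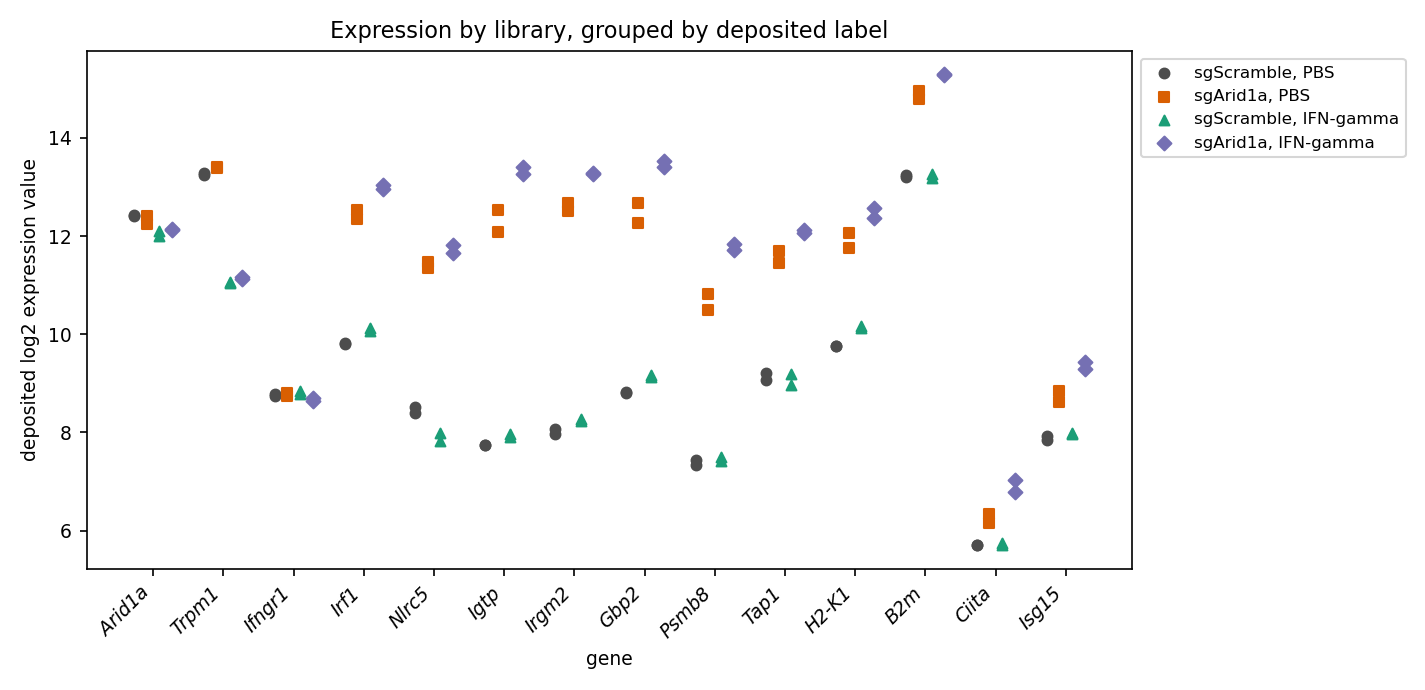
Points are deposited log2 values (vertical axis) of 14 genes (horizontal axis) in each of the 8 libraries, by deposited label, with 2 points a group. For Irf1 and the genes to the right of it both groups labelled sgArid1a lie above both labelled sgScramble, whereas Arid1a and Trpm1 are lower in both groups labelled IFNg.

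Set directly against each other, the libraries labelled sgArid1a PBS and sgScramble IFNg differed in 4938 genes (40%), of which 2644 were higher (21.4%) and 2294 lower (18.6%) in those labelled sgArid1a PBS. With each library centred on its median the split was 2140 and 3305. All 13 GTPases, 19 of 23 MHC class I genes and 42 of 47 type I genes were among those higher. The guide comparison under the IFNg label shares no library with that under the PBS label. Both came from the same fit, with a common filter and a common spread for each gene, so their calls are not independent. The comparison under the IFNg label called 498 genes higher (4.03%) and 334 lower (2.7%), or 453 and 579 with centred libraries. Of the 293 genes higher under the PBS label 254 were also higher under the IFNg label, which is 86.7% of the first list and 51% of the second. Of the 43 lower genes 23 were shared, 53.5% of the first and 6.89% of the second. The difference between the 2 guide comparisons itself passed the test in 109 genes (0.882%). Within the group labelled sgArid1a, IFNg minus PBS, 48 of the 49 genes were higher and 1 lower, with a median of 0.57 (42.3% of all tested genes differed and 20.9% were higher). That comparison shares the libraries labelled sgArid1a PBS with the one that chose the 49.

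The second measurement used genes that carry the sgArid1a label's difference in other cultures. With sgArid1a, 5.84% of tested genes were higher and 5.98% lower in untreated cultures, and 3.5% and 4.38% in DMSO cultures. With the interferon-related lists left out, 330 genes were lower and 215 higher with sgArid1a in both the untreated and the DMSO cultures. Under the PBS label, 3 of the 330 were lower and 13 higher (0.348% and 2.37% of all tested genes), with a median of 0.02. Of the 215, 9 were higher and 0 lower, with a median of -0.00. For most of these genes the sgArid1a label's difference seen in those cultures was thus not found between the groups labelled PBS. The 215 still held Ube2l6, which rose by 1.82 between the PBS groups. The type I interferon list, left out of these counts, did go the same way. With sgArid1a, 33 of 43 tested members were higher in untreated cultures and 24 of 44 in DMSO cultures, and 0 were lower. Between the PBS groups 43 of 47 were higher and 0 lower (2.37% and 0.348% of all tested genes). Between sgScramble IFNg and sgScramble PBS, 229 of the 330 were lower and 15 higher (19.3% and 15.7% of all tested genes), with a median of -0.27. Of the 215, 95 were higher and 37 lower, with a median of 0.09. Between sgArid1a IFNg and sgArid1a PBS, 246 of the 330 were lower and 13 higher (21.3% and 20.9% of all tested genes), with a median of -0.31. Of the 215, 112 were higher and 36 lower there, with a median of 0.11. Between sgArid1a IFNg and sgScramble IFNg, 28 of the 330 were lower and 19 higher (2.7% and 4.03%), with a median of -0.02. Of the 215, 15 were higher and 10 lower there, with a median of 0.0009. The gene Trpm1, a melanocyte ion channel, was at 13.25 and 13.28 under sgScramble PBS and 13.41 and 13.38 under sgArid1a PBS. It was at 11.06 and 11.04 under sgScramble IFNg and 11.13 and 11.16 under sgArid1a IFNg. The difference of sgScramble IFNg from sgScramble PBS was -2.21 ± 0.04 for Trpm1, and the sgArid1a label went with -2.27 in untreated and -1.52 in DMSO cultures. Nupr1, a stress-induced chromatin protein, had differences of -3.21 and -2.49 in those cultures, and was at 8.67 and 8.78, 8.91 and 8.95, 7.69 and 7.49, and 7.74 and 7.72 in the 4 groups in the same order. Nkain1, which interacts with a sodium pump subunit, was higher in those cultures by 1.24 and 0.74 and had 11.54 and 11.55, 11.54 and 11.50, 12.40 and 12.39, and 12.45 and 12.42.

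**Figure D4:**
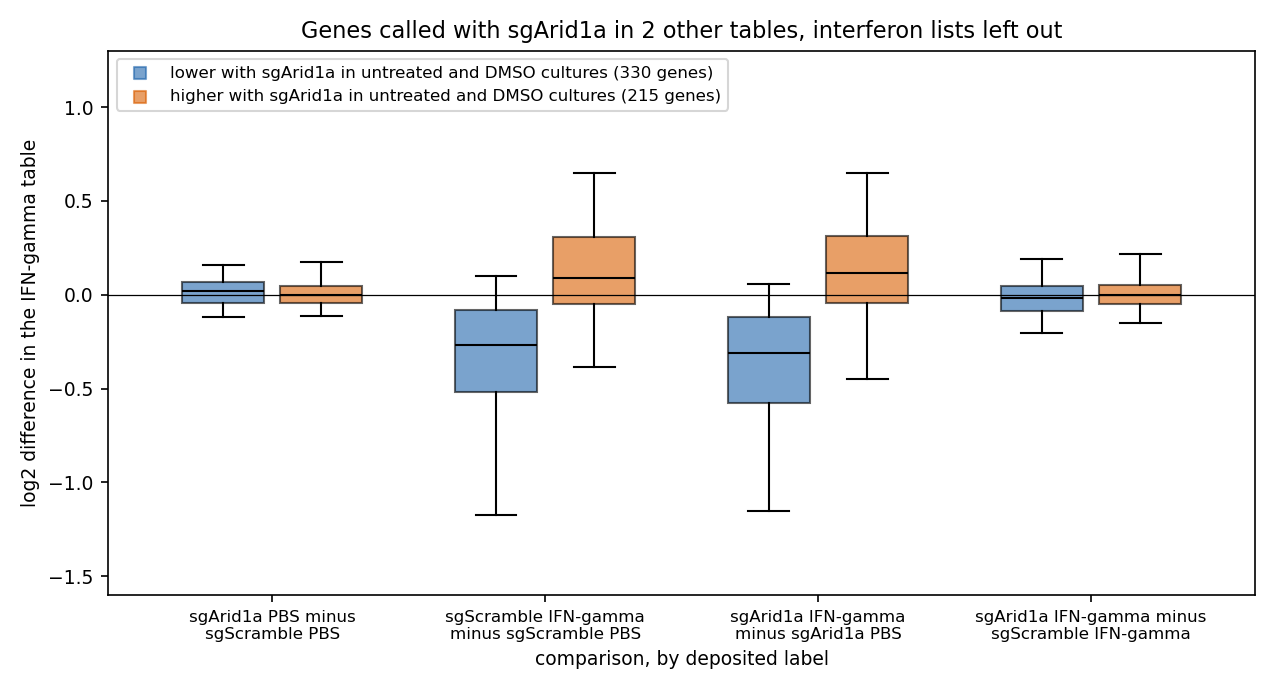
Boxes give the quartiles and medians of log2 differences in the table with IFNg (vertical axis) for 4 comparisons by deposited label (horizontal axis), with whiskers from the 5th to the 95th percentile. The 330 genes lower and the 215 higher with sgArid1a in 2 other sets of cultures have medians of 0.02 and -0.00 between the PBS groups, and of -0.27 and 0.09 between sgScramble IFNg and sgScramble PBS.

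Not all genes went the way of the other cultures. Of the cholesterol and fatty acid synthesis genes, 21 of 26 were higher and 0 lower with sgArid1a in untreated cultures (5.84% and 5.98% of all tested genes), with a median of 0.59. Between sgScramble IFNg and sgScramble PBS 22 of 27 were lower and 0 higher (19.3% and 15.7% of all tested genes), with a median of -0.26. The unfolded protein and integrated stress response genes did go the same way. Of 28, 20 were lower and 7 higher in untreated cultures, and 17 were lower and 3 higher between sgScramble IFNg and sgScramble PBS. The gene with the highest rise between the 2 groups labelled sgScramble was Id3, an inhibitor of helix-loop-helix factors, singled out after its values were seen. It was at 9.19 and 9.59 under sgScramble PBS, 9.43 and 9.69 under sgArid1a PBS, 12.35 and 12.50 under sgScramble IFNg, and 12.56 and 12.32 under sgArid1a IFNg. In untreated cultures Id3 differed by -0.58 with sgArid1a and in DMSO cultures by 0.04. The difference of Id3 between the libraries labelled IFNg and PBS thus had no counterpart in the other cultures.

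The third measurement was the distance between libraries, as the mean absolute log2 difference over the 12357 tested genes. It was 0.0481 between the 2 libraries labelled sgScramble PBS and 0.0526 between those labelled sgArid1a PBS. Across these 2 groups it was 0.0699 to 0.0776. Across the 2 groups labelled IFNg it was 0.0814 to 0.101, and between any library labelled PBS and any labelled IFNg it was 0.136 to 0.167. Over all genes the libraries therefore paired by the label of the treatment, while the interferon-response genes split them by the label of the guide. The 2 comparisons of IFNg minus PBS, within sgScramble and within sgArid1a, share no library. Their calls come from the same fit, with a common spread for each gene, and are not independent. The 2 comparisons had 1972 lower genes in common (82.8% and 74.8% of the 2 lists) and 1383 higher genes (71.2% and 53.5%).

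**Figure D5:**
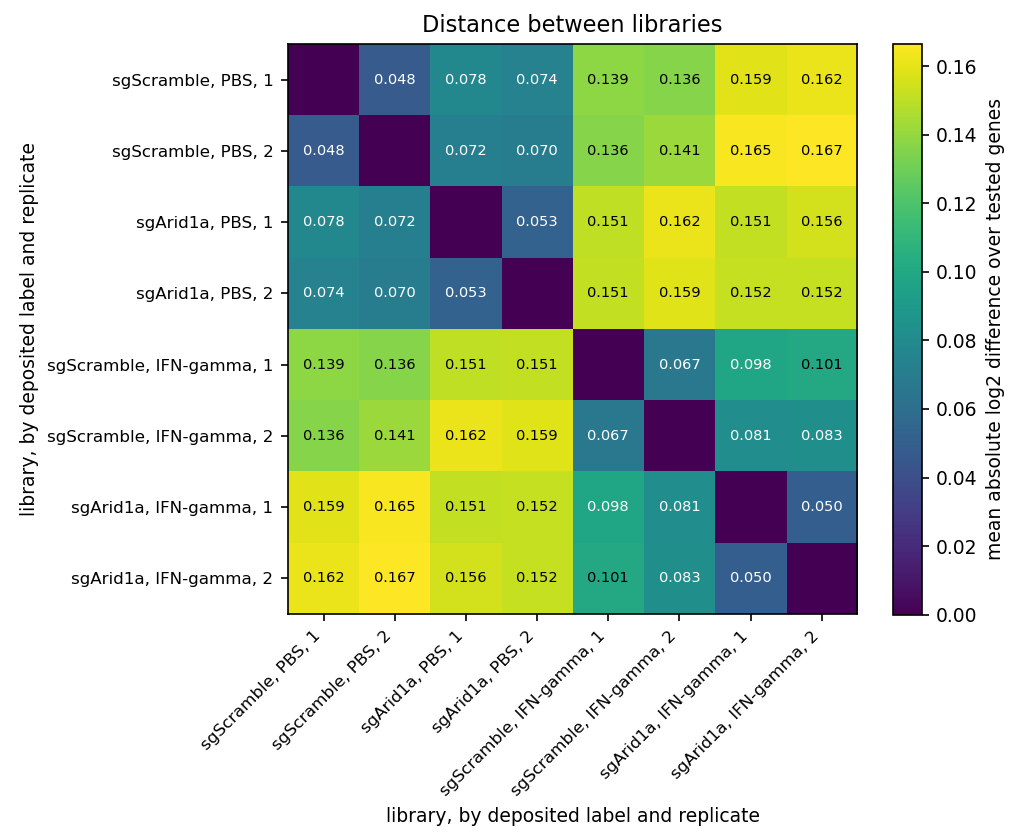
The matrix gives the mean absolute log2 difference over the tested genes for each pair of the 8 libraries, named by deposited label and replicate on both axes, with the value in each cell. Pairs within the PBS label lie at 0.0481 to 0.0776, and pairs of a PBS and an IFNg label at 0.136 to 0.167.

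If the names sgArid1a PBS and sgScramble IFNg were exchanged, interferon-response genes would be high in both groups named IFNg, and Arid1a and Trpm1 would be lower in both groups named sgArid1a. The values of cholesterol genes and Id3 would still differ in direction or size from those in the other cultures. No library was renamed or regrouped, and the sample records that could settle the question were not used here. An exchange of labels and a true difference between the cultures cannot be told apart from these values alone.

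The libraries of the group labelled sgArid1a PBS also differed from each other in this response. Replicate 1 was above replicate 2 in 49 of the 49 genes that rose by at least 1, with a median gap of 0.20. The corresponding counts were 33 in sgScramble PBS, 42 in sgScramble IFNg and 40 in sgArid1a IFNg, with median gaps of 0.04, 0.06 and 0.07. The widest gap among the named GTPases was that of Igtp, 12.53 against 12.08. Depth differed little between the 2 libraries, at 29.8 and 27.9 M reads, and the part of that in the gap was not tested.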

How the data were processed

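STAR 2.5.3a and HOMER, with the build GRCm38/mm10, are named in the submitters' processing notes. Per the file headers, genes were counted with no strand option stated, so antisense reads are not separated although the library kit is stranded. The deposited table holds normalized log2 values made by the authors, not counts, with low values drawn together, and the authors' edgeR fold changes and p-values. Those p-values were used only where they are named as theirs. For each library the total of reads is given in the file headers.

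The design had allowed for counts; on log2 values limma 3.58.1 (trend) in R 4.3.3 was used, with no pseudocount. All 4 groups of the table were fitted together on genes with a mean of at least 4 over the 8 libraries, so that a gene low in one group could pass through another. Of the 24537 genes, 7085 were 0 in all 8 libraries. P-values were adjusted over the 12357 tested genes (Benjamini-Hochberg), and genes were called under 0.05. Errors after ± are standard errors. The untreated and DMSO tables, normalized separately, were fitted in the same way with all their groups and compared only as differences. The scripts were tested on simulated data.

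Named genes were Arid1a, the 10 largest rises and the 10 largest falls among called genes with no overlap of groups, up to 4 members of each list by smallest p, and a panel of interferon genes; some are not reported here, and others are marked as chosen later. The members, the 25 lists and the rules were chosen with earlier results of these data known. The lists overlap, and a gene can count in several. Promoters came from RefSeq, and only 225 of the 293 genes called higher and 9562 of the 12357 tested had an entry; a check of motif shares over gene sets is therefore void, and none is given. Alternatives were the libraries fitted, the filter, the scaling, the variance trend, a replicate block, single libraries left out and a size rule. Added after seeing the data were fits without either group labelled IFNg, and the authors' calls.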

Additional observations from a re-analysis of the deposited data

Results flagged for a closer look

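In 109 genes (0.882% of those tested) the difference between the guide labels was not the same under IFNg as under PBS, by the interaction term of the limma fit at an adjusted p under 0.05. It was larger under the IFNg label for each of the interferon-response genes named next. On the log2 scale the interaction was 0.45 for Irgm2, 0.84 for Igtp, 0.67 for Gbp2, 1.04 for Ifi47, 0.64 for Tgtp2, 0.31 for Irgm1 and 0.60 for Gbp7, all GTPases. Among antigen presentation genes it was 1.05 for Psmb8, 0.87 for Nlrc5, 0.42 for B2m, 0.58 for Tap1 and 0.64 for Ciita. It was 0.41 for Cd274, 0.58 for Ifit1, 0.54 for Isg15 and 0.41 for Rsad2. Of the 49 genes that rose by at least 1 under the PBS label, 27 had a positive interaction that passed the test, and 0 a negative one. Other genes went the other way, with interactions that passed of -0.44 for Trib3, -0.34 for Atf5 and -0.19 for C4b, a complement gene. Of 25 tested p53 targets, 4 had a negative interaction that passed and 0 a positive one. The deposited log2 values compress low levels, and the part of this in the interaction was not tested. The interaction is stated by deposited label and would have another meaning if 2 labels were exchanged.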

How the results depend on the processing

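No alternative turned the direction of a named gene that was called under the PBS label. For other genes and comparisons only counts were recomputed, and directions gene by gene were not compared. Of 119 recomputed counts 106 stayed within 1.5 times the main count. The number of genes called lower under the PBS label, 43, was the least stable. It was 131 with only the 4 PBS libraries fitted, 22 with no filter on low values, 80 with median-centred libraries, 145 without the libraries labelled sgScramble IFNg (added after seeing the data) and 110 by the authors' deposited edgeR calls. With 1 library left out at a time it ranged from 9 to 20. A required difference of at least 1 left 0 lower genes and 49 of the 293 higher ones. The number called higher ranged from 194 to 225 with 1 library left out. Of the 293 genes, 292 were also higher by the authors' deposited calls, which is 99.7% of the 293 and 72.1% of the authors' list. Under the IFNg label the 334 lower genes became 579 with median-centred libraries. The causes were not tested. Of the recomputed values of named genes 47 lost a call and 33 gained one. The other 1435 were counted as unchanged, and these include genes called in neither fit. For a gene not called in the main fit, a turned sign also counted as unchanged.

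Replicate numbers did not pair the libraries: the deviations of same-numbered libraries correlated at -0.02 across the 2 PBS groups and from -0.25 to 0.22 across the other pairs of groups. With the replicate number as a block, 299 genes were higher, of which 291 were shared with the 293, and 54 were lower. Each group has 2 libraries, and the depth of each PBS library was 27.9 to 31.2 M reads, which limits what can be seen in weakly expressed genes such as Ciita.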

Other observations

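Both groups labelled IFNg differed from both groups labelled PBS in genes outside the interferon lists. Of 25 tested p53 targets, 19 were lower and 1 higher between sgScramble IFNg and sgScramble PBS, with a median of -0.25, and 20 were lower and 0 higher between sgArid1a IFNg and sgArid1a PBS, with a median of -0.45. These comparisons share no library but come from the same fit, and 19.3% and 21.3% of all tested genes were lower in them. Ccng1, a cyclin-like p53 target, was at 14.20 and 14.19 under sgScramble PBS, 14.11 and 14.05 under sgArid1a PBS, 13.33 and 13.41 under sgScramble IFNg, and 13.10 and 13.02 under sgArid1a IFNg. Spp1, which encodes osteopontin, and Sytl2, a regulator of vesicle transport, differed by -2.18 and -2.03 between sgScramble IFNg and sgScramble PBS, and Fgfr3, a growth factor receptor, by 2.43. These 3 were picked after their values were seen. With the sgArid1a label, Spp1, Sytl2 and Fgfr3 differed in the same directions in the other cultures. The differences were -1.44, -1.04 and 0.55 in untreated cultures and -0.50, -0.72 and 0.35 in DMSO cultures. Whether the differences between the IFNg and PBS labels belong to the treatment or the guide was not tested.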
